A study of Mus musculus with 8 samples.

Results

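Folate handling was described by 8 genes among the 16397 of the count table. Of these, 3 encode proteins that carry folate across membranes (Folr1, Slc19a1 and Slc46a1) and 5 encode enzymes that charge, exchange or spend one-carbon units (Mthfd1, Mthfd2, Tyms, Shmt1 and Shmt2). The genes were chosen by name, with their IUGR and sham levels already known, to set transport beside metabolism. Their values from the fit across all genes, calls and intervals included, are therefore a description of the contrast they were chosen on and no independent test of it.

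Hippocampi of C57Bl/6J mouse embryos were dissected at E15.5, and their total RNA was depleted of ribosomal RNA and sequenced (4 samples per group, each with its own library). IUGR (intrauterine growth restriction) embryos came from dams that carried, from E12.5, a micro-osmotic pump with U-46619, an analog of thromboxane A2 that makes the dam hypertensive, and sham embryos came from dams given a pump with vehicle at the same age. Both groups thus shared surgery, strain and age, and the study's methods state that both sexes were used. The labels do not say which dam or litter an embryo came from, so the p values below measure only the spread between these samples.

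Total counts ranged from 11212632 to 16672463 per library, and all libraries were read in the same lane. The IUGR samples are named T1-1, T1-3, T1-4 and T1-5 and the sham samples S1-4, S1-6, S3-1 and S3-4, and the name prefix and the group cannot be told apart. All 9 hippocampal and pallial markers examined (such as Emx2 and Prox1) were present, with a summed level of 1036 to 1319 counts per 1e+06 counts (CPM) in the IUGR and 897 to 1984 CPM in the sham libraries. All 9 had a lower fitted level in IUGR (median log2 fold change -0.57) and all 10 neuron markers a higher one (0.46), and without T1-3 the medians were -0.41 and 0.39. None of the hippocampal markers was called by edgeR, DESeq2 or limma-voom. Of the neuron markers none was called by edgeR. At an unadjusted edgeR p under 0.05 were 5 of 10 neuron and 2 of 9 hippocampal markers, beside 11.1% of all tested genes. DESeq2 and limma-voom each called 1 neuron marker, beside 3.1% and 2.39% of all tested genes. This was Syt1, named after its values were seen (log2 fold change 1.08, edgeR adjusted p = 0.0629). Also higher in IUGR, with none called by any of these tools, were 9 of 10 endothelial and pericyte markers (median 0.43) and all 8 erythroid markers (0.43). Of the endothelial and pericyte markers, 3 of 10 were at an unadjusted edgeR p under 0.05. The IUGR libraries T1-3 and T1-4 stood apart. In T1-3 the 10 meningeal fibroblast genes summed to 3191 CPM, against 108 to 979 CPM in the other IUGR and 389 to 757 CPM in the sham libraries, and the 20 genes of S phase and mitosis summed to 3369 CPM, against 5136 to 7036 CPM and 5297 to 5929 CPM. All 10 meningeal and all 10 macrophage genes had a fitted level above sham (medians 1.20 and 0.32), compared with 4 and 3 of 10 without T1-3 (medians -0.02 and -0.04), and none was called. T1-4, the library with the lowest Folr1, was the lowest of the 8 for meningeal genes (108 CPM), macrophage genes (63.6 CPM, against 75.7 to 302 CPM) and erythroid genes (658 CPM, against 1065 to 2141 CPM). The part of these cell types in the results below was not tested.

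Folates are vitamins that carry single carbon atoms between molecules. Cells take up folate through a receptor that is internalized by endocytosis (folate receptor alpha, encoded by Folr1), through an exchanger that favors reduced folates (the reduced folate carrier, Slc19a1) and through a proton-coupled transporter (Slc46a1), and in the brain the receptor is known for carrying folate from blood into cerebrospinal fluid across the choroid plexus epithelium. Inside the cell, serine hydroxymethyltransferases (Shmt1 in the cytosol, Shmt2 in mitochondria) load carbon from serine, methylenetetrahydrofolate dehydrogenases (Mthfd1 in the cytosol, Mthfd2 in mitochondria) change its oxidation state, and thymidylate synthase (Tyms) spends it to make the thymidine nucleotide that DNA replication needs.

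Several of these genes have close relatives, so the stretches where reads could be shared are shown first. Each line is coding sequence from GENCODE M21 on GRCm38 (all positions below use this build), read 5′ to 3′ on the gene's strand. The capitals mark the longest run that the pair has in common, and 10 bases of flank on either side are in lower case.
Folr1, chr7:101863955-101863994, minus strand: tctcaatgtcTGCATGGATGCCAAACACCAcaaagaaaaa
Folr2, chr7:101843698-101843737, minus strand: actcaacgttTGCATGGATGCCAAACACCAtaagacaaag
Shmt1, chr11:60794907-60794945, minus strand: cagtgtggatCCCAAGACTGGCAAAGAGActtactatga
Shmt2, chr10:127518886-127518924, minus strand: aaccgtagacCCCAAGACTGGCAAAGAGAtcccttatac
Mthfd2, chr6:83306730-83306769, minus strand: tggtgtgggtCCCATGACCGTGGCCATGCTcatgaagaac
Mthfd2l, chr5:91020192-91020231, plus strand: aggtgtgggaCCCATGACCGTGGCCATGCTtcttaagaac
The longest shared run was 20 bases for Folr1 and Folr2, 19 bases for Shmt1 and Shmt2, and 20 bases for Mthfd2 and Mthfd2l. A sequence of 50 bases therefore cannot lie wholly within a run common to the coding sequences of such a pair. Across all transcripts of each gene, 5.72% of the 50-base stretches of Tyms also occurred in another gene (the pseudogene Tyms-ps among them), compared with 3.37% for Shmt1, 1.25% for Shmt2, 0.398% for Folr1 and none for the other 4 genes.

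Folr1 (ENSMUSG00000001827, chr7:101858331-101870788, minus strand) had the widest difference of the 8 genes. In the sham libraries S1-4, S1-6, S3-1 and S3-4 it was at 128, 77.9, 108 and 65.0 CPM. In the IUGR libraries T1-1, T1-3, T1-4 and T1-5 it was at 0.375, 10.9, 0.253 and 9.28 CPM. The groups did not overlap, and the IUGR libraries themselves fell into a pair near 10 CPM and a pair below 1 CPM. The low pair rested on very few reads, 5 counts in T1-1 and 3 counts in T1-4, compared with 900 to 1388 counts in the sham libraries. Exact Poisson 95% intervals, which cover counting error only, ran from 0.122 to 0.874 CPM in T1-1 and from 0.0521 to 0.739 CPM in T1-4, both below the lower bounds of 9.34 CPM in T1-3 and 7.70 CPM in T1-5.

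The mean Folr1 level was 94.9 ± 28.7 CPM (SD, n = 4) in sham and 5.20 ± 5.68 CPM (SD, n = 4) in IUGR, so the IUGR mean was 5.48% of the sham mean. The fitted log2 fold change was -4.16 (SE 0.85, 95% interval -6.04 to -2.28). Leaving out T1-3 gave -4.80, leaving out T1-4 gave -3.78, and over each library left out in turn the value stayed between -4.80 and -3.75. In bulk tissue, fewer cells of a type and less RNA per cell cannot be told apart. A gene was called when its edgeR adjusted p was 0.05 or less and its level differed by 2-fold or more. By this call Folr1 was the single member called out of 8, where 1.46% of all 13707 tested genes were called and 1.36% were called lower in IUGR. DESeq2 and limma-voom also called Folr1 alone of the 8, with 3.1% and 2.39% of all tested genes called. The edgeR call of Folr1 was lost without T1-1 and without each of the 4 sham libraries in turn. Folr1 was also the single member whose groups did not overlap, which held for 7.14% of all tested genes (5.06% with IUGR below sham). Because the genes were chosen with this contrast in view, these shares are given as background only.

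**Figure D1:**
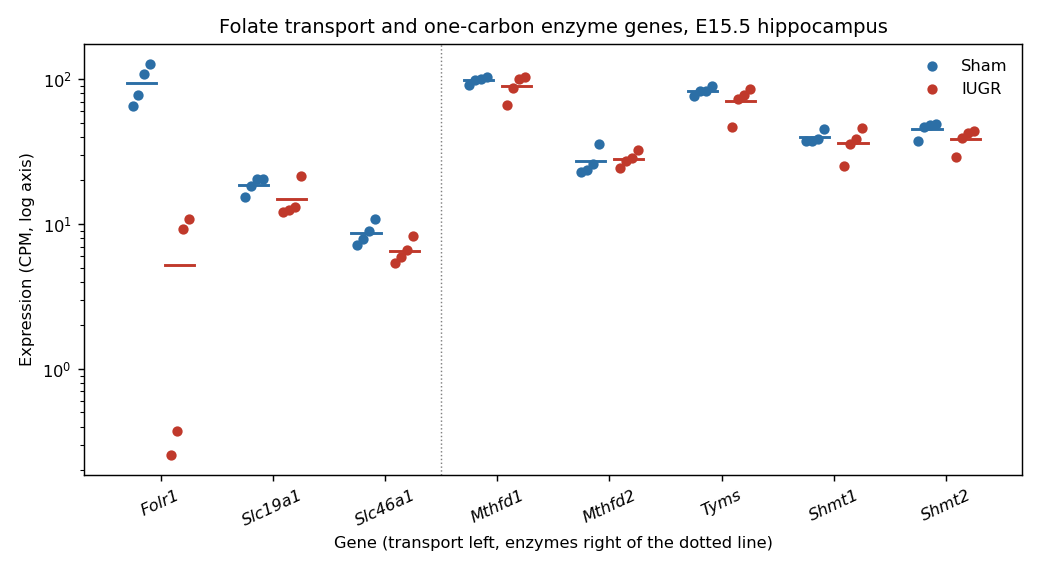
Level of each of the 8 genes in CPM on a log axis, with 1 point per library (blue, sham; red, IUGR) and a bar at the arithmetic mean of each group. Folr1 is separated by group (65.0 to 128 CPM in sham, 0.253 to 10.9 CPM in IUGR), whereas the points of the other 7 genes overlap between groups.

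The other carriers differed far less. Slc19a1 (ENSMUSG00000001436, chr10:77032241-77061002, plus strand) was at 20.3, 18.3, 15.5 and 20.5 CPM in S1-4, S1-6, S3-1 and S3-4, and at 12.6, 21.5, 13.1 and 12.1 CPM in T1-1, T1-3, T1-4 and T1-5. T1-3 was the highest of all 8 libraries, and the other 3 IUGR libraries lay below every sham library. The log2 fold change of Slc19a1 was -0.33 (SE 0.22, 95% interval -0.81 to 0.16), and it ranged from -0.53 (without T1-3) to -0.22 (without T1-1) over each library left out in turn. Col18a1, a basement membrane collagen gene that overlaps Slc19a1 on the opposite strand without sharing exon bases, was also highest in T1-3, at 139 CPM compared with 48.8 to 88.4 CPM in the other IUGR libraries. The part of the meningeal genes or of Col18a1 in the Slc19a1 value of T1-3 was not tested.

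Slc46a1 (ENSMUSG00000020829, chr11:78465697-78472059, plus strand) was at 10.8, 7.19, 7.84 and 8.91 CPM in S1-4, S1-6, S3-1 and S3-4. In T1-1, T1-3, T1-4 and T1-5 it was at 8.24, 6.58, 5.90 and 5.40 CPM. The groups overlapped through T1-1, which lay above S3-1 and S1-6. The log2 fold change was -0.41 (SE 0.22, 95% interval -0.90 to 0.08). It was -0.38 without T1-3, and over the left-out libraries it ranged from -0.51 (without T1-1) to -0.24 (without S1-4). For both carriers the interval reached from a loss of nearly 1 log2 unit to a small gain, so neither a moderate decrease nor equal levels were separable at this spread.

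Scaled for exon length as RPKM (CPM per kilobase of exon), the level of Folr1 averaged 41.3 RPKM in sham, the highest mean of the 8 genes, and 2.26 ± 2.47 RPKM (SD, n = 4) in IUGR. The sham means of Slc19a1 and Slc46a1 were 4.01 and 2.82 RPKM, and their IUGR means were 3.19 and 2.12 RPKM. Folr1 thus made up 79.5 to 88.9% of the summed RPKM of the 3 transport genes in the sham libraries. This share was 2.94, 41.2, 2.27 and 48.1% in the IUGR libraries T1-1, T1-3, T1-4 and T1-5. The summed level of the other 2 carriers was 5.87 to 7.89 RPKM in sham and 4.36 to 6.77 RPKM in IUGR, and these ranges overlapped. The ratio of Slc19a1 to Slc46a1 also overlapped, at 1.25 to 1.69 in sham and 1.01 to 2.17 in IUGR.

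**Figure D2:**
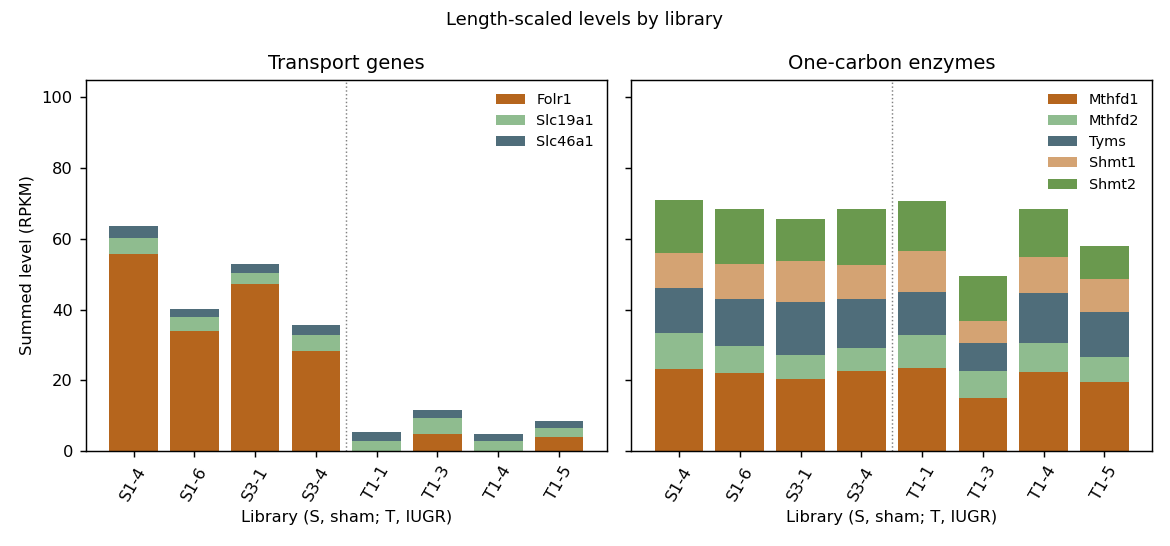
Stacked RPKM of the 3 transport genes (left) and the 5 enzymes (right) in each library, on a shared axis, with sham libraries (S) left and IUGR libraries (T) right of the dotted line. The transport stack is mostly Folr1 in sham (79.5 to 88.9%), while the enzyme stack reached 65.7 to 70.9 RPKM in sham and 49.5 to 70.8 RPKM in IUGR, lowest in T1-3.

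Among the enzymes, those that load carbon from serine were described first. Shmt1 (ENSMUSG00000020534, chr11:60788104-60811718, minus strand) was at 38.6, 37.6, 45.0 and 37.7 CPM in S1-4, S1-6, S3-1 and S3-4, and at 45.7, 25.1, 38.9 and 36.0 CPM in T1-1, T1-3, T1-4 and T1-5. The groups overlapped, and T1-3 was the lowest of all libraries. Its log2 fold change was -0.13 (SE 0.18, 95% interval -0.53 to 0.27). It ranged from -0.22 (without T1-1) to 0.05 (without T1-3), and it was -0.06 without S3-1. Shmt1 shares 184 exon bases with Smcr8 on the opposite strand, and Smcr8 had a log2 fold change of 0.05 (SE 0.17).

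Shmt2 (ENSMUSG00000025403, chr10:127517123-127522444, minus strand) was at 46.5, 48.3, 37.5 and 49.2 CPM in S1-4, S1-6, S3-1 and S3-4. In T1-1, T1-3, T1-4 and T1-5 it was at 43.7, 39.2, 42.2 and 29.3 CPM. Of the sham libraries, 3 lay above every IUGR library, and S3-1 lay within the IUGR range. The log2 fold change was -0.23 (SE 0.16, 95% interval -0.59 to 0.12). It was -0.21 without T1-3, and over the left-out libraries it ranged from -0.31 (without S3-1) to -0.12 (without T1-5). Shmt2 shares 32 exon bases with Ndufa4l2 on the opposite strand, and Ndufa4l2 had a log2 fold change of 0.44 (SE 0.33). The mitochondrial to cytosolic ratio, Shmt2 over Shmt1 in RPKM, was 1.04 to 1.63 in sham and 1.02 to 1.95 in IUGR, without separation of the groups.

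Mthfd1 (ENSMUSG00000021048, chr12:76255298-76319803, plus strand), which joins dehydrogenase, cyclohydrolase and formate-ligase activities in one protein, was the highest of the enzymes. It was at 103, 98.2, 91.2 and 101 CPM in S1-4, S1-6, S3-1 and S3-4, and at 104, 66.2, 99.8 and 87.4 CPM in T1-1, T1-3, T1-4 and T1-5. The sham values lay close together, whereas T1-3 was well below the rest. The log2 fold change was -0.14 (SE 0.15, 95% interval -0.47 to 0.20). It ranged from -0.19 (without T1-4) to 0.02 (without T1-3), and it was -0.07 without S1-4.

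Mthfd2 (ENSMUSG00000005667, chr6:83305691-83325908, minus strand), the mitochondrial enzyme that is abundant in proliferating and embryonic cells, was the single member with a higher fitted level in IUGR. It was at 35.8, 26.1, 23.5 and 22.9 CPM in S1-4, S1-6, S3-1 and S3-4, and at 32.5, 27.3, 28.7 and 24.3 CPM in T1-1, T1-3, T1-4 and T1-5. The IUGR values lay inside the sham range. The log2 fold change was 0.06 (SE 0.18, 95% interval -0.33 to 0.46), and 0.11 without T1-3. Over the left-out libraries it ranged from -0.013 (without S3-4) to 0.27 (without S1-4), so its sign was not stable. The ratio of Mthfd1 to Mthfd2 in RPKM was 2.26 to 3.46 in sham and 1.90 to 2.83 in IUGR.

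Tyms (ENSMUSG00000025747, chr5:30058202-30073617, minus strand) was at 76.4, 82.4, 90.3 and 83.0 CPM in S1-4, S1-6, S3-1 and S3-4. In T1-1, T1-3, T1-4 and T1-5 it was at 73.6, 47.0, 85.5 and 77.8 CPM. T1-3 was the lowest library, and the rest of the IUGR range overlapped sham. The log2 fold change was -0.23 (SE 0.18, 95% interval -0.62 to 0.17), and it ranged from -0.33 (without T1-4) to -0.04 (without T1-3). Thus the lower fitted levels of Tyms, Mthfd1 and Shmt1 rested largely on the library in which the genes of S phase and mitosis were also lowest, and the part of those genes in the result was not tested.

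Per length, the order of the sham means was Folr1, Mthfd1 (22.1 RPKM), Shmt2 (14.6 RPKM), Tyms (13.6 RPKM), Shmt1 (10.2 RPKM), Mthfd2 (7.76 RPKM), Slc19a1 and Slc46a1. In IUGR the order was Mthfd1 (20.1 RPKM), Shmt2 (12.4 RPKM), Tyms (11.7 RPKM), Shmt1 (9.38 RPKM), Mthfd2 (8.09 RPKM), Slc19a1, Folr1 and Slc46a1. Shmt2 and Tyms did not differ beyond their spread in either group, with SDs of 1.73 and 0.931 RPKM in sham and 2.09 and 2.75 RPKM in IUGR. In IUGR, Shmt1 likewise lay within the spread of its neighbors Tyms and Mthfd2, with SDs of 2.21 RPKM for Shmt1 and 0.984 RPKM for Mthfd2. In IUGR, Folr1 was not separable from Slc19a1 or Slc46a1, since the SD of Folr1 exceeded its mean. Slc19a1 lay above Slc46a1 in every library of both groups, in T1-1 by a ratio of only 1.01.

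As groups, the median log2 fold change was -0.41 for the 3 transport genes and -0.14 for the 5 enzymes, compared with -0.02 over all 13707 tested genes. The difference between these medians was -0.27, and it ranged from -0.55 (without T1-3) to -0.15 (without S1-4). Of the 8 genes, 7 had a fitted log2 fold change below 0, as did 55.5% of all tested genes. All 8 passed the filter on low counts. The transport median was the value of Slc46a1, so the much larger difference of Folr1 did not set it.

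The other genes of folate transport, one-carbon metabolism and the processes tied to them were then examined in 9 lists, with 85 tested genes that are not among the 8. Of these, 60 had a fitted level below and 25 above sham (median log2 fold change -0.07), and none was called by edgeR, DESeq2 or limma-voom. Without T1-3 the balance turned, with 38 below and 47 above sham (median 0.03) and none called. At an unadjusted p under 0.05, edgeR gave 4 of the 85 (Lrp2, Ahcyl2, Ppat and Chac1), compared with 11.1% of all tested genes. The groups did not overlap for 2 of the 85, Lrp2 and Ahcyl2, compared with 7.14% of all tested genes, so this count was not above the background.

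Of the 7 other genes of folate receptors, carriers and efflux, 4 were below and 3 above sham (6 and 1 without T1-3). The lowest was Lrp2, encoding megalin, an endocytic receptor of epithelia that takes up many carrier proteins, including folate-binding protein. Lrp2 was at 66.9, 71.1, 42.6 and 58.7 CPM in S1-4, S1-6, S3-1 and S3-4, and at 35.7, 25.5, 36.5 and 37.7 CPM in T1-1, T1-3, T1-4 and T1-5. Every IUGR library lay below every sham library, yet the log2 fold change of -0.82 (SE 0.19) had an edgeR adjusted p of 0.0655 and was under the fold criterion. Over the alternatives the log2 fold change of Lrp2 ranged from -1.002 to -0.54 and its adjusted p from 0.00633 to 0.490. The highest of the list was Folr2, encoding folate receptor beta of macrophages, at 1.18 ± 0.313 CPM (SD, n = 4) in sham and 1.27 ± 1.14 CPM (SD, n = 4) in IUGR (log2 fold change 0.13, edgeR adjusted p = 1.00). Its highest value, 2.70 CPM, was again in T1-3, where the 10 macrophage genes summed to 302 CPM, compared with 63.6 to 141 CPM in the other IUGR libraries. The sign of the Folr2 difference turned without T1-3, to -0.54.

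Within cells, folates are kept by the addition of glutamate residues. Fpgs, which adds them, had a log2 fold change of -0.05 (SE 0.16), and Ggh, which removes them, one of -0.46 (SE 0.21, edgeR adjusted p = 0.466). The value of Ggh ranged from -0.60 to -0.26 over the left-out libraries. Among 7 other folate cycle enzymes, 3 were below and 4 above sham (2 and 5 without T1-3). The lowest was Aldh1l1, which oxidizes formyl folate to carbon dioxide. It was at 55.5 ± 23.3 CPM (SD, n = 4) in sham and 47.0 ± 4.70 CPM (SD, n = 4) in IUGR, with a log2 fold change of -0.24 (SE 0.30, edgeR adjusted p = 1.00). Aldh1l1 was at 22.9 CPM in S3-4 and at 54.8 to 74.5 CPM in the other sham libraries. Over the left-out libraries its log2 fold change ranged from -0.50 to -0.02. The highest was Mthfs, which recycles formyl folate, at 0.25 (SE 0.39) on a mean count of only 16.6. The relatives Mthfd1l and Mthfd2l had log2 fold changes of 0.00 (SE 0.18) and 0.09 (SE 0.20).

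Glycine cleavage and serine synthesis supply carbon to the cycle, and 5 of the 7 genes were below sham. They ranged from Gldc, the decarboxylase of glycine cleavage, at -0.37 (SE 0.22, edgeR adjusted p = 0.677) to Psph, the last enzyme of serine synthesis, at 0.13 (SE 0.21). In the methionine cycle and transsulfuration, 9 of 11 tested genes were below sham (6 without T1-3). The lowest was Ahcyl2, a relative of the enzyme that breaks down S-adenosylhomocysteine, at 62.9 ± 5.23 CPM (SD, n = 4) in sham and 41.1 ± 9.73 CPM (SD, n = 4) in IUGR, with a log2 fold change of -0.61 (SE 0.18, edgeR adjusted p = 0.145). The highest was its relative Ahcyl1, at 0.07 (SE 0.23). These differences did not pass the test.

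The nucleotide pathways that consume one-carbon units lay close to 0. In purine synthesis 8 of 11 genes were below sham (5 without T1-3), from Ppat, which catalyzes the committed step, at -0.42 (SE 0.16, edgeR adjusted p = 0.336), to Impdh1, of guanine nucleotide synthesis, at 0.15 (SE 0.21). In thymidylate and deoxynucleotide supply 7 of 10 genes were below sham (2 without T1-3), from Dtymk, thymidylate kinase, at -0.16 (SE 0.13; -0.06 without T1-3), to Tk2, mitochondrial thymidine kinase, at 0.12 (SE 0.15). Among 20 genes of S phase and mitosis, 17 were below sham with a median of only -0.09, whereas without T1-3 only 5 were below sham and the median was 0.10. They ranged from Cdk1 at -0.25 (SE 0.18) to Uhrf1 at 0.00 (SE 0.25), and these were at -0.07 and 0.18 without T1-3. Mki67 and Pcna, common markers of cycling cells, were at -0.15 (SE 0.25) and -0.17 (SE 0.18), and at 0.07 and -0.0071 without T1-3.

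Mitochondrial folate enzymes, Mthfd2 among them, are known targets of the amino acid response through the factor ATF4. Of 10 other tested targets, 5 were below and 5 above sham. They ranged from Cebpb, a transcription factor, at -0.56 (SE 0.42) to Chac1, which degrades glutathione, at 0.82 (SE 0.36, edgeR adjusted p = 0.420). Chac1 was at 1.35 to 2.77 CPM in sham and 2.36 to 5.29 CPM in IUGR, with overlap between the groups and the highest value in T1-3.

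**Figure D3:**
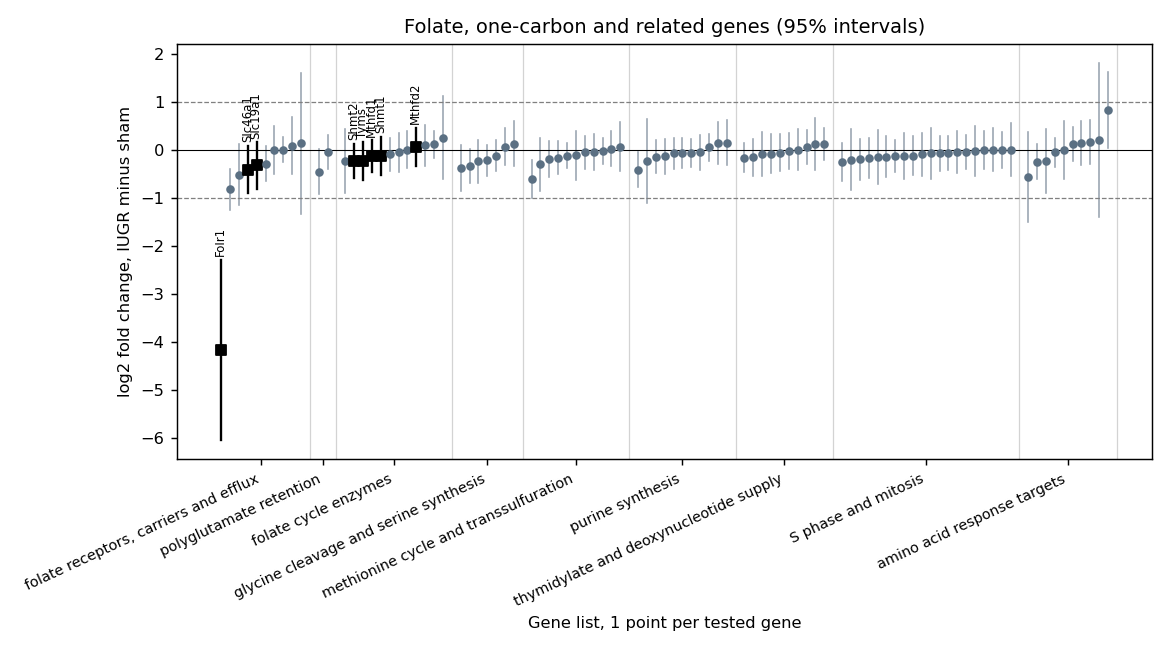
Fitted log2 fold change (IUGR minus sham) with 95% interval of every tested gene of the 9 lists, sorted within each list; black squares are the 8 genes described here and grey points the others, and dashed lines mark a log2 fold change of 1 in either direction. Folr1, at -4.16, is the single point beyond the dashed lines.

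Since Folr1 alone stood far from 0, the genes with the most similar pattern were sought. The measure was the root mean square difference of log2 CPM over the 8 libraries, each gene centred on its own mean, and low values mean similar patterns. The nearest of 13707 genes were Kcne2 (0.40), a potassium channel subunit, Prr32 (0.47), Kcnj13 (0.61), a potassium channel, Calml4 (0.62) and Tmem72 (0.67). Kcne2, Kcnj13 and Calml4 belong to a list of choroid plexus epithelial markers, and 10 of the 16 tested genes of that list were within the 20 nearest. The other 7 folate genes ranked from 1462 (Slc19a1) to 10458 (Mthfd2). Because Folr1 was chosen for its pattern, these likenesses are a description.

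**Figure D4:**
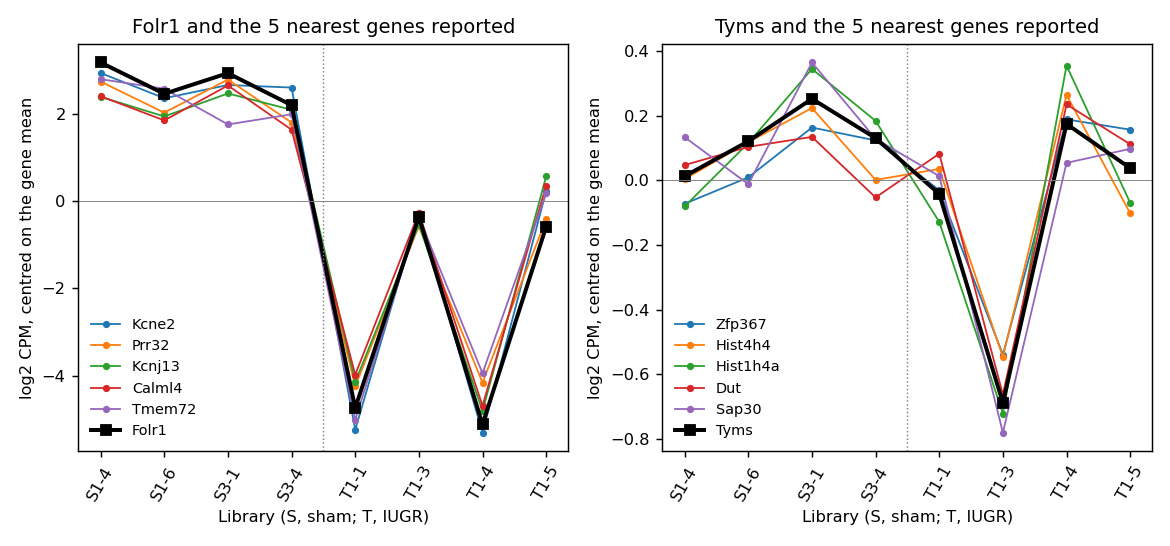
Log2 CPM of Folr1 (left) and Tyms (right), each with 5 of the genes nearest to it, and each gene centred on its own mean over the 8 libraries (S, sham; T, IUGR); lines join points of a gene for legibility, and libraries have no order. Folr1 and its neighbors are lowest in T1-1 and T1-4, while Tyms and its neighbors are lowest in T1-3.

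The choroid plexus is a secretory epithelium beside the hippocampal primordium, and 18 of its markers were examined beside Folr1. All 16 tested markers had a fitted level below sham (median log2 fold change -3.05), 4 were called lower by edgeR (6 by DESeq2 and 12 by limma-voom, beside 1.36%, 3.1% and 2.39% of all tested genes, the last 2 in either direction), and none of the 18 was at 0 in any library. The groups did not overlap for 14 of the 16, compared with 7.14% of all tested genes, and likeness to Folr1 varied, with Otx2 at rank 384. Summed, they reached 5851 to 12495 CPM in the sham libraries and 123 to 1426 CPM in the IUGR libraries. In the sham libraries, T1-3 and T1-5 most of the sum was Ttr (transthyretin), which exceeded the upper count limit of the test, whereas in T1-1 and T1-4 most of it was the other markers. Ttr was at 25.4, 966, 10.2 and 594 CPM in T1-1, T1-3, T1-4 and T1-5, and at 4550 to 10851 CPM in sham. The same pair of IUGR libraries was thus lowest for Ttr and for Folr1. Among the named markers, Cldn2, a tight junction protein, was at -3.76 (edgeR adjusted p = 0.0219, and from 5.85e-08 by DESeq2 to 0.166 with the S3 sham samples alone), Aqp1, a water channel, at -3.58 (edgeR adjusted p = 0.0503) and Kcnj13 at -3.10 (edgeR adjusted p = 0.128). The 7 genes of a list for motile ciliated cells all had a fitted level below sham (4 called by edgeR). They summed to 167 to 240 CPM in the sham and 22.2 to 71.5 CPM in the IUGR libraries, and T1-1 and T1-4 were again the lowest. Whether the choroid plexus and ciliated lists mark separate cells was not tested, nor was the part of such cells in the Folr1 result.

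Folr1 was then set against other markers. Kcne2 is the gene nearest to Folr1 in pattern, so its ratio was bound to vary little and is given as a description. The ratio of Folr1 to Kcne2 in RPKM was 0.360 to 0.576 in sham and 0.268 to 0.641 in IUGR. The ratio to Ttr was 0.00559 to 0.00738 in sham and 0.00581 to 0.0128 in IUGR. Both ratios overlapped between groups, although the levels themselves did not. Relative to the summed CPM of the choroid plexus markers without Ttr, Folr1 was at 5.00 to 9.52% in sham and 0.224 to 2.37% in IUGR, and the groups did not overlap. This sum, however, was 73.0% and 79.6% Otx2 and Slc31a1 (a copper transporter, rank 910 in likeness to Folr1, named after its values were seen) in T1-1 and T1-4, compared with 27.2 to 31.5% in T1-5 and T1-3 and 14.5 to 17.4% in sham. In T1-1 and T1-4 the percentage thus sets Folr1 mainly against the markers least like it. In T1-3 and T1-5, where Otx2 and Slc31a1 were the smaller part of the sum, Folr1 was at 2.37 and 2.30%. These values too lay below every sham library. The part of Otx2 and Slc31a1 in the difference was not tested. The groups also did not overlap in the ratio to Otx2, a transcription factor of the choroid plexus and of other forebrain regions, which was 1.16 to 2.34 in sham and 0.0236, 0.320, 0.0168 and 0.345 in T1-1, T1-3, T1-4 and T1-5. Otx2 itself had a log2 fold change of -1.28, a smaller difference than that of Folr1. In T1-1 and T1-4 these ratios rest on 5 and 3 counts of Folr1, and the ratio to Kcne2 also on 6 and 5 counts of Kcne2.

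**Figure D5:**
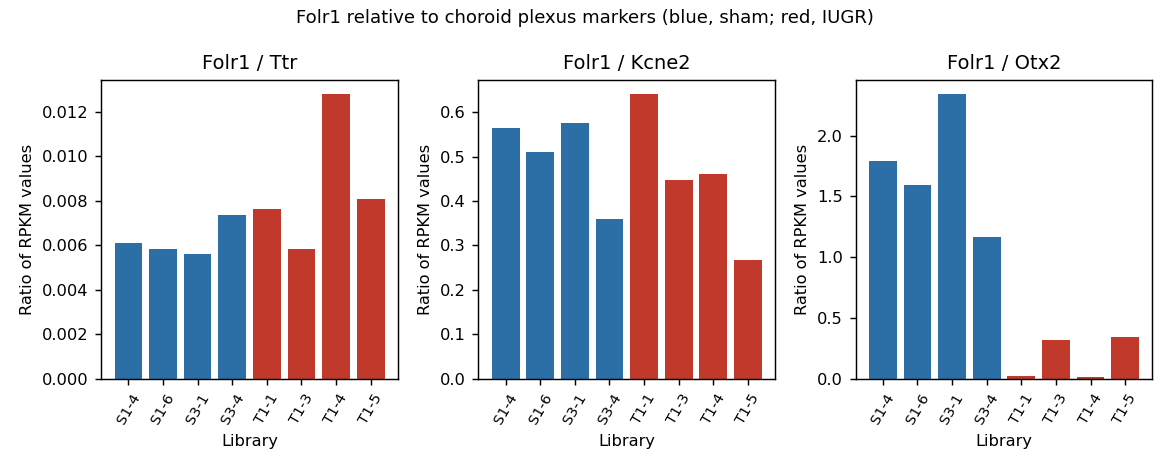
Ratio of Folr1 to Ttr, Kcne2 and Otx2 in RPKM in each library (blue, sham; red, IUGR), with axes from 0. The ratios to Ttr and Kcne2 overlap between groups, and the ratio to Otx2 does not (at most 0.345 in IUGR and at least 1.16 in sham).

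Anapc15, which overlaps Folr1 on the opposite strand and shares no exon bases with it, had a log2 fold change of 0.01 (SE 0.18), with 34.2 to 51.0 CPM in IUGR. The difference of Folr1 was thus not seen in the gene that lies across from it.

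Tyms had a different set of neighbors. Among the nearest were Zfp367 (0.09), Hist4h4 (0.09), Hist1h4a (0.10), Dut (0.10), which limits uracil in DNA, and Sap30 (0.10). Dut was at 108 to 123 CPM in sham and at 118, 70.6, 132 and 121 CPM in T1-1, T1-3, T1-4 and T1-5, with the same low library as Tyms. These genes were picked for their likeness to Tyms over the same libraries. The shared low library and a ratio that varies little were thus bound to appear and are given as a description. The ratio of Tyms to Dut in RPKM was 0.262 to 0.305 in sham and 0.246 to 0.263 in IUGR. T1-3 had the highest ratio of the IUGR libraries, and the other IUGR libraries lay below every sham library. The log2 fold changes of these neighbors ran from -0.27 (Sap30) to -0.08 (Dut), and none was called. Without T1-3, 3 of them turned to small positive values, Hist4h4 (0.02), Zfp367 (0.08) and Dut (0.12), while Sap30 was at -0.07 and Hist1h4a at -0.04.

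Promoter windows (250 bases before to 50 after the start of the gene, RefSeq) were found for 7 of the 8 genes, all but Folr1. On both strands, these held no match to the E2F spellings TTTCCCGC, TTTCGCGC, TTTGCCGC or TTTGGCGC, which 2.26% of 32851 windows held. They also held no match to the ATF4 spelling TGATGNAA (3.97% of windows) or the OTX2 spelling TAATCC (7.06% of windows). This says only that these letters are not in these windows.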

How the data were processed

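RNA of 4 IUGR and 4 sham E15.5 hippocampi was sequenced as single reads with a kit that keeps the strand. The authors aligned reads to GRCm38 and deposited raw counts per gene; the submitters' processing notes name Novoalign 2.8, and the counting program, annotation release and strand setting are not given in the sources used here. Of 16397 identifiers, 16124 matched GENCODE M21 and 14564 were protein-coding, of which 13707 with a mean count from 10 to below 50000 were tested. Counts were compared in R 4.3.3 by the quasi-likelihood test of edgeR 4.0.16 with TMM normalization and Benjamini-Hochberg adjustment over all tested genes, after a check on simulated data. Calls needed an adjusted p no higher than 0.05 together with a difference of 2-fold or more. CPM and RPKM were computed from the TMM-adjusted library sizes, RPKM with the summed exon length, and log2 CPM with a prior count of 2.

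The 8 genes and all lists were chosen with earlier results of these data known. Named were the 8 genes, the lowest and highest tested gene of each pathway list and any called gene in it, Ttr, Kcnj13, Cldn2, Aqp1, Otx2, Mki67, Pcna, relatives of the 8 genes, and 5 of the genes nearest to Folr1 and to Tyms. Withheld genes are not reported here and were left out of the lists, not out of the fit. Anapc15, Col18a1, Ndufa4l2 and Smcr8, which overlap these genes, were added after their values were seen. Alternatives were DESeq2 1.42.0 (size factors or Wald test), upper-quartile scaling, limma-voom (limma 3.58.1), all biotypes, other count filters, no fold criterion, each sample left out in turn, and the sham samples of either name prefix alone. The 12 pairs of samples within a group differed by more than sampling noise (chi-square per degree of freedom 27.2 to 71.8).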

Additional observations from a re-analysis of the deposited data

Results flagged for a closer look

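In 5 of 88 groups of 4 samples examined, 1 sample lay far from the other 3 by Dixon's criterion for the gap to the nearest sample, where chance gives about 1 in 20. Of the 16 groups of the 8 folate genes, 2 were of this kind. Slc19a1 was at 21.5 CPM in the IUGR sample T1-3 and at 12.1 to 13.1 CPM in the other IUGR samples. Shmt1 was at 45.0 CPM in the sham sample S3-1 and at 37.6 to 38.6 CPM in the other sham samples. Among the other genes named, Lrp2 was at 25.5 CPM in T1-3 and at 35.7 to 37.7 CPM in the other IUGR samples, Sap30, near Tyms in its pattern, was at 57.8 CPM in T1-3 and at 100 to 106 CPM in the other IUGR samples, and Ggh was at 42.4 CPM in S3-1 and at 25.5 to 27.9 CPM in the other sham samples.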

How the results depend on the processing

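Over the whole table, 200 genes were called, compared with 425 by DESeq2, 328 by limma-voom, 73 with a mean count of at least 50, 0 with the S1 sham samples alone, 2 with the S3 sham samples alone, and 24 (without S1-4) to 302 (without T1-5) when 1 sample was left out. Folr1, the single called folate gene, was called in 11 of 19 alternatives. The number called was 0 with a mean count of at least 50, with the S1 or the S3 sham samples alone, and without T1-1 or without any 1 of the 4 sham samples, and over the left-out samples it ranged from 0 to 1. Its log2 fold change ranged from -5.49 to -3.75. No other pathway gene was called in any of the 19 alternatives. The difference between the transport and enzyme medians kept its sign throughout. Among the enzymes, Mthfd1 and Shmt1 turned to 0.02 and 0.05 without T1-3, and Mthfd2 ranged from -0.11 (S1 sham samples alone) to 0.33 (S3 sham samples alone).

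Of genes that were not called, signs turned as follows. With limma-voom, Folr2 was at -0.50, Uhrf1 at -0.033 and Mthfd1l at -0.0019. With the S3 sham samples alone, Aldh1l1 was at 0.33, Fpgs at 0.018, Mthfs at -0.033, Mki67 at 0.10, Mthfd1l at -0.052 and Mthfd2l at -0.047. With the S1 sham samples alone, Uhrf1 was at -0.14 and Zfp367 at 0.027. Over the left-out samples, the log2 fold change ranged from -0.54 to 0.50 for Folr2, -0.082 to 0.00088 for Fpgs, -0.10 to 0.20 for Ahcyl1, -0.19 to 0.18 for Uhrf1, -0.35 to 0.068 for Mki67, -0.067 to 0.094 for Mthfd1l, -0.079 to 0.22 for Mthfd2l, -0.17 to 0.083 for Zfp367, -0.27 to 0.020 for Hist4h4 and -0.18 to 0.12 for Dut. The cause was not tested. No paired analysis was possible because the labels give no numbers that pair IUGR with sham samples.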
